A study of Dunaliella salina with 9 samples.

Results

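A set of 120 transcript clusters of the green alga Dunaliella salina was less abundant after a shift of the cells to an irradiance of 600 µmol photons m⁻² s⁻¹, and more abundant after a shift to 1500, than without a shift from 150. They were chosen by these values from the 76875 clusters listed. The rule asked for a mean of at least 5 CPM (counts scaled to a common library total) at 150, a mean at least 1.8-fold lower at 600 and at least 1.8-fold higher at 1500. It also asked that the libraries of 600 lay below, and those of 1500 above, all libraries of 150. Since every library entered this choice, the differences between the groups are given as a description and carry no test.

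Dunaliella salina is a unicellular, wall-less alga of saline waters, known for its carotenoids and for the glycerol with which it balances salt. Green algae acclimate to light by changing the size of the antennae that feed the photosystems, by dissipating surplus energy as heat through xanthophylls and by repairing photosystem II. Whether any of these processes bears on the members was not tested. The cluster identifiers had no match (0 of 76875) among the genes annotated on the Dunsal1 v. 2 assembly, so no member can be assigned to one of these processes, no pathway list was counted and no sequence is shown. The members are described by their level, the size and evenness of their differences, their counts and their length, and only 4 are given by identifier.

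The 9 RNA-seq libraries formed 3 groups of 3. All cells were grown at 22 °C with 150 µmol photons m⁻² s⁻¹ from white fluorescent lamps, with 16 h days and 8 h nights, taken in mid-exponential phase and put into fresh medium. The group LL stayed at 150, ML was shifted in 1 step to 600 and HL likewise to 1500 µmol photons m⁻² s⁻¹. The strain, the length of the light treatment and whether replicates came from separate cultures are not given in the labels, so the spread between libraries may be partly technical. Library totals were 17778225 to 19643714 counts. A count of 0 in a library allows up to 3 counts, which is 0.153 to 0.169 CPM and covers counting error only.

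The members held a small share of each library, and this share differed about as strongly as the typical member. Together they took 0.307% ± 0.011 of LL counts, 0.102% ± 0.011 of ML counts and 0.844% ± 0.026 of HL counts (SD, n = 3 each). The LL libraries lay at 0.318%, 0.296% and 0.306%, the ML libraries at 0.0894%, 0.110% and 0.105%, and the HL libraries at 0.829%, 0.874% and 0.830%. The spread within a group was small beside the steps between groups. The rule fixed the direction of these steps, a size of at least 1.8-fold and the separation of libraries, so nothing is read from this. The summed level was 3.02-fold lower in ML than in LL and 2.75-fold higher in HL than in LL. The 4 most abundant members held 37.6% of the sum in LL, 39.2% in ML and 40.3% in HL. Without them the ratios were 3.10 and 2.63, where the rule fixed at least 1.8 for any subset of the members.

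Per length, the median member stood at 11.0 FPKM (fragments scaled to length and depth) in LL, 2.79 in ML and 29.8 in HL. In LL the members ranged from 1.79 to 306 FPKM. By CPM, 54 of the 120 members had an LL mean below 10, and 5 reached 100 in LL, 2 in ML and 14 in HL. Of all clusters that met the limit of 5 CPM in LL, 14830 in number and called eligible here, the lowest of 4 equal classes of LL level held 50 members and the highest class 12. The members thus lay mostly among the less abundant of the eligible clusters, whose median LL level was 18.4 CPM against 10.9 for the members.

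The most abundant member stood at 370, 346 and 384 CPM in the LL libraries. It stood at 116, 160 and 162 in ML and at 929, 854 and 829 in HL. The second stood at 399, 339 and 346 CPM in LL, 162, 201 and 209 in ML and 923, 1133 and 990 in HL. Both kept a substantial level in ML, and no libraries of different groups overlapped, as the rule required of every member. The third had a much deeper decrease, from 218, 206 and 250 CPM in LL to 5.95, 5.40 and 6.42 in ML, with 725, 742 and 690 in HL. Its LL mean was 38.0 times its ML mean, with an ML spread of only 0.510 CPM (SD, n = 3). The fourth was uneven within ML, at 40.1, 96.4 and 29.2 CPM, beside 207, 203 and 194 in LL and 766, 836 and 786 in HL. Without its highest ML library its LL-to-ML ratio would be 5.82 instead of 3.65. The fifth was the most abundant member with whole-number counts throughout, and in ML and HL the most even of these 5. It stood at 107, 99.6 and 100 CPM in LL, 46.6, 47.6 and 45.3 in ML and 255, 252 and 251 in HL.

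With library totals, the decrease at 600 was usually larger and more variable among members than the increase at 1500. The LL mean was 3.14 times the ML mean in the median member, with a middle range of 2.20 to 5.82. The HL mean was 2.31 times the LL mean in the median member, with a middle range of 2.00 to 2.88. The decrease was the larger step in 91 members and the increase in 29. It was more than 2 times the increase in 33 members, and the reverse held in 1. In 35 members the ML mean was at least 5-fold below the LL mean, whereas 2 members had an HL mean at least 5-fold above it. Both steps were at least 2-fold in 78 members and at least 3-fold in 22. These counts hold for library totals. TMM factors, which scale libraries by the bulk of clusters, were on average 1.03 in LL, 1.06 in ML and 0.918 in HL. They would enlarge the increase more than the decrease.

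**Figure D1:**
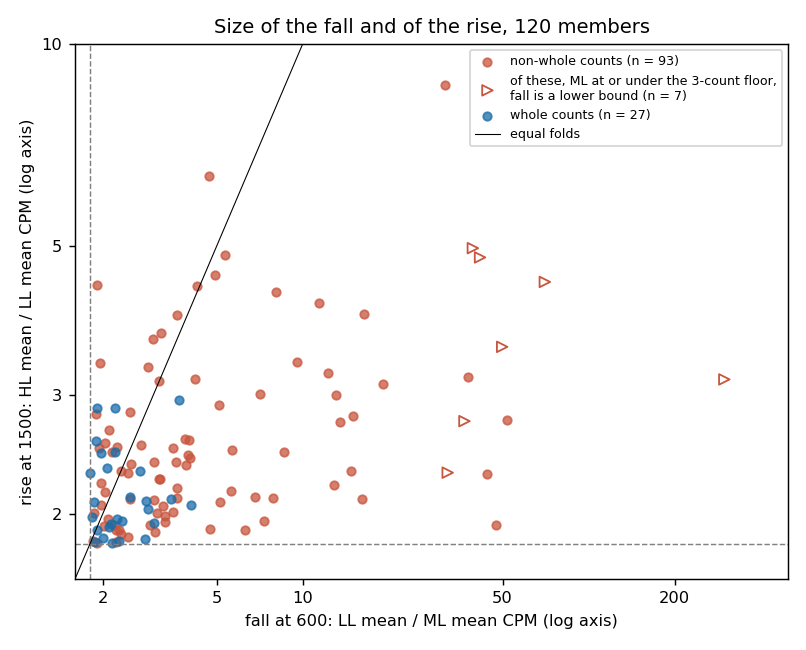
Each point is a member, with the ratio of LL to ML mean CPM on the x axis and the ratio of HL to LL mean CPM on the y axis, both on log axes. Dashed lines mark the 1.8-fold limits and the solid line marks equal ratios. With library totals, most points lie to the right of it (91 of 120), and the members with whole counts (blue) stay at ratios of at most 4.07 and 2.96.

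Many members were close to the limits of the rule. The HL-to-LL ratio was below 2 in 30 members and the LL-to-ML ratio in 17. The member nearest to the limit of the decrease had a ratio of 1.8054, and the nearest cluster outside had 1.7996. For the increase the values were 1.8059 and 1.7990, and for the LL level 5.04 and 4.93 CPM. Clusters that failed a single limit numbered 117 for the decrease, 375 for the increase, 333 for the LL level and 19 for the separation of libraries. The list is therefore a section through a continuous range. Of the eligible clusters, 1109 (7.48%) met the condition on ML and 605 (4.08%) that on HL. The 120 members were 10.8% of the former and 19.8% of the latter, and these comparisons share the LL libraries.

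The gap between the nearest libraries, which the rule required in every member, is given here as a description. The lowest LL library was at least 1.5 times the highest ML library in 100 members, and in 7.95% of all eligible clusters. The lowest HL library was at least 1.5 times the highest LL library in 109 members, and in 4.88% of eligible clusters. The rule asked for separation, so nothing is read from these shares. Both gaps were that wide in 94 members, but the share of eligible clusters with both is not given, so nothing is read from this count either.

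Cluster-5009.30587 had the largest HL-to-LL ratio, and Cluster-5009.34793 the second largest, among the 82 members with a mean of at least 10 CPM over all libraries. The former stood at 13.7, 6.49 and 10.1 CPM in LL, 0.543, 0.419 and 0 in ML and 87.6, 83.4 and 91.6 in HL. All 3 HL libraries were close together, while the LL libraries differed 2.11-fold. Its HL mean of 87.5 ± 4.13 CPM was 8.68 times its LL mean of 10.1 ± 3.59 (SD, n = 3 each), which in turn was 31.4 times its ML mean. That last ratio rested on few counts in ML, and was 48.1 without the library numbered 1 and 21.0 without that numbered 3. Cluster-5009.34793 stood at 11.4, 12.1 and 9.15 CPM in LL, 3.71, 0 and 3.24 in ML and 66.9, 79.0 and 61.7 in HL. Its HL-to-LL ratio was 6.37 and its LL-to-ML ratio 4.69, and the ML mean depended on a library at 0, without which the latter ratio was 3.13.

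Cluster-5009.33111 and Cluster-5009.47617 were listed at 0 in all 3 ML libraries and had the highest LL levels among such members. Cluster-5009.33111 stood at 31.4, 57.1 and 51.7 CPM in LL and at 160, 140 and 145 in HL. Taking 3 counts per library as the limit in ML, its level there was at least 298-fold lower than in LL, and its HL mean was 3.17 times its LL mean. Cluster-5009.47617 stood at 10.7, 9.32 and 13.0 CPM in LL and at 49.9, 57.2 and 39.2 in HL. It was at least 70.3-fold lower in ML than in LL, and its HL-to-LL ratio was 4.42. Both were picked for their LL-to-ML ratio, so the distance between their groups followed from the choice. There was no ML signal to compare. All 4 named members held non-whole counts.

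**Figure D2:**
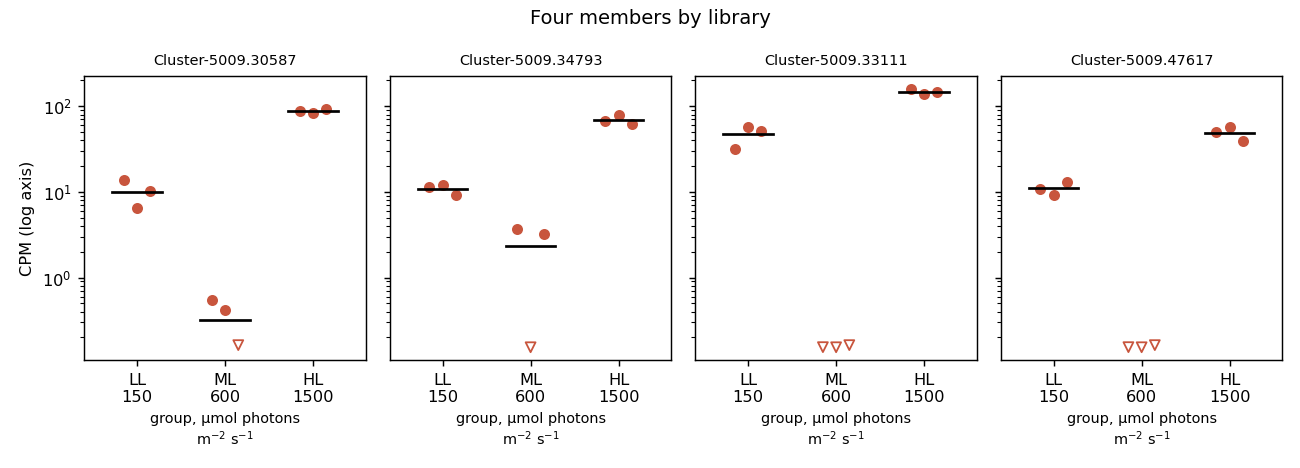
CPM of the 4 named members in each library on a log axis, by group with its irradiance. Filled points are libraries, lines are group means, and open triangles are libraries at 0, drawn at the 3-count limit of about 0.157 CPM. In every panel the HL libraries lie highest and the ML libraries lowest, and the last 2 panels have no ML library above 0.

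The depth of the decrease in ML went with whether the counts were whole numbers. Some programs divide a read among similar sequences and so give counts with decimals, but the counter used here is not stated and what gave these decimals was not tested. Of the members, 27 (22.5%) had whole counts throughout, against 44.1% of the eligible clusters. When the rule was applied to FPKM instead of CPM, the shares were 42.2% of the 166 clusters found and 55.4% of those eligible by FPKM, so the size of this difference depended on the unit. With CPM, the share was 47.1% among the 17 members with an LL-to-ML ratio below 2, 39.3% among the 28 from 2 to 2.5 and 20.0% among the 40 from 2.5 to 5. None of the 35 members with a ratio of 5 or more had whole counts, whereas with FPKM 5 of 36 such clusters had. Of the 38 clusters with a ratio of 5 or more that met the condition on ML but not that on HL, 3 (7.89%) had whole counts. The share of whole counts varied little with the LL level of eligible clusters, from 46.0% in the lowest of the 4 classes to 42.1% in the highest. Its part in the deep decreases was not tested.

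**Figure D3:**
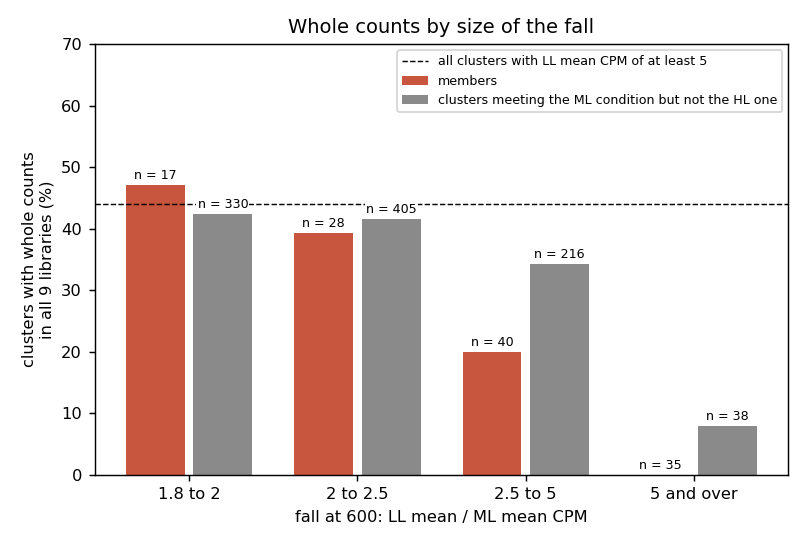
Share of clusters with whole counts in all 9 libraries (y axis, %) by the ratio of LL to ML mean CPM (x axis), for the members and for clusters that met the condition on ML but not that on HL. Numbers above the bars are clusters and the dashed line is the share among all eligible clusters, 44.1%. In the members the share goes from 47.1% to 0 as the decrease deepens, while with FPKM in place of CPM 5 of 36 deep decreases had whole counts.

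Among the 27 members with whole counts both steps were moderate and even between libraries. The LL-to-ML ratio ranged from 1.81 to 4.07 with a median of 2.20, and the HL-to-LL ratio from 1.81 to 2.96 with a median of 2.06. Their summed level was 569 ± 23.2 CPM in LL, 259 ± 12.4 CPM in ML and 1245 ± 29.95 CPM in HL (SD over 3 libraries), ratios of 2.19 and 2.19. With library totals the decrease was the larger step in 18 of them, and none had both steps at 3-fold or more. The member of this kind with the deepest decrease stood at 10.6, 11.0 and 9.66 CPM in LL, 2.05, 2.92 and 2.71 in ML and 22.4, 22.9 and 19.3 in HL. That with the largest increase stood at 5.85, 5.50 and 6.64 CPM in LL, 1.90, 1.28 and 1.68 in ML and 18.4, 17.8 and 16.9 in HL. The libraries of a group differed most in ML, by 1.42-fold in the former and 1.48-fold in the latter. The distance between the groups followed from the rule and from picking extremes.

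The 93 members with non-whole counts reached deeper decreases and were less even. Their median LL-to-ML ratio was 3.64 and their median HL-to-LL ratio 2.42. Their summed level was 2501 ± 94.2 CPM in LL, 757 ± 97.0 CPM in ML and 7195 ± 228 CPM in HL (SD over 3 libraries). In 25 members, all of this kind, at least 1 ML library was at 0, and 6 of these were at 0 in all 3. The ML libraries of a member differed by more than 2-fold in 46 members, of which 1 had whole counts. In LL this held for 10 members, none with whole counts, and in HL for none of the 120.

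**Figure D4:**
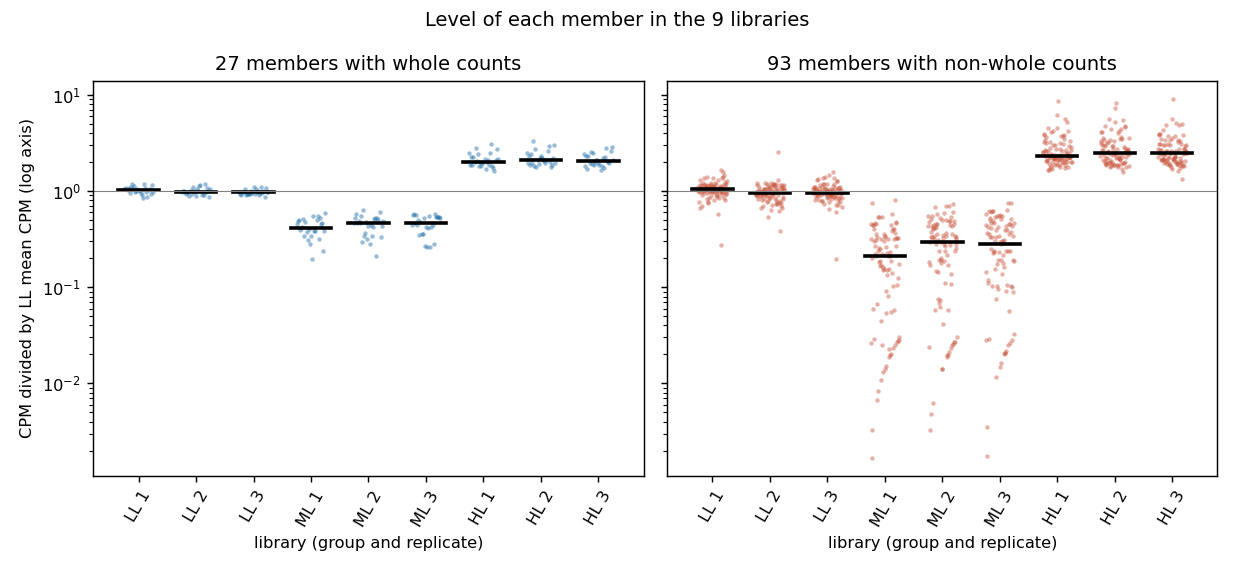
CPM of each member divided by its LL mean (y axis, log) in the 9 libraries (x axis), for members with whole counts (left) and non-whole counts (right). Points are members, bars are medians, and values at 0 are drawn at the 3-count limit. The ML libraries form a narrow band on the left and spread over more than a factor of 100 on the right, while the HL libraries are narrow in both.

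The spread between replicates was widest in ML. The median coefficient of variation of a member was 14.0% in LL, 31.2% in ML (over the 113 members with an ML mean above the 3-count limit) and 7.00% in HL. In eligible clusters the medians were 7.48%, 7.29% and 6.83%. Members with whole counts had 7.66% in LL and 9.91% in ML, and those with non-whole counts 16.2% and 39.9%. Non-whole clusters that met only the condition on ML had 10.8% in ML. Their levels there were higher, with a median of 8.48 CPM for all clusters meeting only that condition, against 3.10 CPM for the members, so depth differed too.

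The LL level of a few members rested on 1 library. The widest case stood at 16.5 CPM in 1 LL library and at 1.78 and 1.29 in the others, with 36.9, 35.7 and 21.8 in HL. It met the limit of 5 CPM only through that library. When each library was left out in turn, 85 of the 120 members, 18 of them with whole counts, stayed in all 9 lists, which held 114 to 139 clusters.

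The rule was also applied with libraries left out, which is no independent check, since the pattern itself had been chosen with all libraries. The libraries of a group may be repeats of the same culture, so they are not known to be independent. The rule was applied to 2 libraries of each group, and the clusters so found were looked up in the remaining library of each group. Chosen without the libraries numbered 1, 135 clusters were found, and in those libraries 132 (97.8%) had the order ML below LL below HL. This order held for 25.2% of the clusters eligible in the same way. Without the libraries numbered 2, it held for 130 of 133 (97.7%, against 23.6%), and without those numbered 3 for 139 of 147 (94.6%, against 24.2%). Of the clusters found in these 3 ways, 100, 105 and 107 were also among the 120 members, which were chosen with all libraries. With 1 library per group left there is no test. The shares describe how far libraries of a group agreed, and nothing more is read from them.

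The limit of 1.8-fold in both steps is a stricter condition than the order, so fewer clusters had to meet it. Both steps reached 1.8-fold in the unused libraries in 89 of 135, 84 of 133 and 84 of 147 clusters, or 65.9%, 63.2% and 57.1%. Of the eligible clusters 1.08%, 1.07% and 1.03% did so. The median LL-to-ML ratio in the unused libraries was 3.50, 2.79 and 2.64, and the median HL-to-LL ratio 2.08, 2.49 and 2.44. All 35, 34 and 30 clusters with whole counts found in this way kept the order, and 15, 18 and 17 of them had both steps at 1.8-fold or more.

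The order of libraries within a group was not fixed by the rule. Within HL, the library numbered 2 was the highest of its group for 58 of the 120 members (48.3%) and for 26.3% of the eligible clusters, with a median deviation from the HL mean of 0.04 on the log2 scale for the members and −0.01 for eligible clusters. Within ML, the library numbered 1 was the lowest for 61 members (50.8%) and for 42.8% of the eligible clusters, and the highest for 16.7% and 20.8%. Its median deviation from the ML mean was −0.13 on the log2 scale for the members and −0.03 for eligible clusters. Within LL, the library numbered 1 was the highest for 46.7% of the members and 44.3% of the eligible clusters. The pooled spread within groups of the median member was an SD of 0.27 on the log2 scale. It describes single members and is no measure of the spread of these medians, so the deviations are given as a description.

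Members were of middling length. The length implied by count and FPKM had a median of 1192 bases, against 1349 in eligible clusters, and ranged from 36.5 to 5072. The files do not say whether the authors shortened the length by the fragment size, so the shortest values are uncertain, and 3 members lie under 100 bases. Of the members 10.8% were under 500 bases and 12.5% at least 2500, against 11.0% and 18.3% of eligible clusters. Members with whole counts were shorter, with a median of 554 bases against 1497 for the others. In eligible clusters these medians were 1061 and 1597. Of the 13 members under 500 bases 12 had whole counts, and of the 15 of at least 2500 bases none had.

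The mirrored rule, higher at 600 and lower at 1500, found 310 clusters, which were longer and more often counted in whole numbers. Their median implied length was 1978 bases, 32.6% were at least 2500 bases long, and 40.6% had whole counts throughout. Their median level in LL was 11.1 CPM, close to that of the members, but per length it was 6.63 FPKM against 11.0. Clusters that met only the condition on ML had a median length of 1128 bases and 38.9% whole counts. Those that met only the condition on HL had 1095 bases and 37.3%. Clusters are not independent replicates, so these differences carry no test.

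How many clusters follow each pattern depended on the scaling. With library totals, as in the rule, 120 clusters followed the pattern and 310 its mirror image. With TMM factors, which scale libraries by the bulk of clusters, the counts were 211 and 200, and with RLE factors 228 and 183. Upper-quartile factors gave 172 and 251, and FPKM values 166 and 270. The excess of the mirrored pattern was thus not kept under TMM and RLE. Under each of TMM, RLE and upper-quartile scaling 119 of the 120 members remained, and under FPKM 96. The share with whole counts was 30.3% with TMM, 31.1% with RLE, 26.2% with upper-quartile factors and 42.2% with FPKM, as above. No whole-count cluster with a decrease of 5-fold or more was found under the first 3.

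In a test across all clusters, most members passed, as the choice all but fixed. All 120 passed the filter on low counts. Of these, 115 were called lower in ML than in LL, beside 19.5% of the 34377 clusters tested, by edgeR's quasi-likelihood test (Benjamini-Hochberg, threshold 0.05). In HL against LL 113 were called higher, beside 22.1%, and in HL against ML all 120, beside 28.9%. The median log2 fold change of the members was −1.69 for ML against LL, 1.37 for HL against LL and 3.04 for HL against ML. With the 6 members at 0 in ML at their 3-count bound, the first and last of these are −1.69 and 3.04, as they must be since the bounds lie beyond the medians. Over all tested clusters the medians were 0.04, 0.01 and −0.07. With library totals in place of TMM factors the latter became 0.08, −0.15 and −0.28, and those of the members −1.66, 1.21 and 2.83. The 10 members that missed the threshold in at least 1 comparison with LL all had non-whole counts, and the largest adjusted p (edgeR) was 0.138 for ML and 0.224 for HL. Nothing is read from these counts, since the rule used the same libraries.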

How the data were processed

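The authors deposited, per the file headers, 1 table per library with an estimated count and an FPKM value for each of 76875 clusters. The estimated counts carry decimals (27.9% to 31.0% of clusters per library) and are not scaled. The deposited FPKM values were scaled to length and depth by the authors, per the file headers. Libraries were prepared with the NEBNext Ultra kit from 1.5 µg of Trizol-extracted RNA each, per the labels' protocols. DESeq 1.10.1 appears in the submitters' processing notes, with no assembler, aligner or counter given in the sources used here.

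CPM was computed from library sums and the rule was applied to group means of 3 libraries. The members, comparison sets and tests were chosen with earlier results of these data known. Counts were rounded and fitted with edgeR 4.0.16 in R 4.3.3 on all 9 libraries (TMM, default expression filter, robust quasi-likelihood fit, group only), and p-values were adjusted over 34377 clusters. DESeq2 1.42.0 and limma 3.58.1 served as alternatives. The analysis was also tested on simulated data. Implied length used libraries with an FPKM of at least 0.5. Named members, among those with a mean of at least 10 CPM, were the 2 with the largest HL-to-LL ratio and the 2 with the largest LL-to-ML ratio. The 4 members at 0 throughout ML tied in the latter, and the tie was broken by LL level after it had been seen.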

Additional observations from a re-analysis of the deposited data

How the results depend on the processing

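The number of members followed the limits of the rule, from 120 to 397 at 1.5-fold, 78 at 2-fold, 311 with an LL limit of 1 CPM and 66 with 10 CPM. It was 211 with TMM and 228 with RLE scaling, and 27 among clusters with whole counts. Leaving out a library gave 114 to 139. Calls among the 120 members were 108 to 115 for ML against LL, 96 to 118 for HL against LL and 117 to 120 for HL against ML. Over all clusters tested, the same fits called 9.15% to 19.6%, 8.15% to 23.0% and 12.9% to 29.7% in these directions. The calls among members cannot exceed 120 and the rule used the same libraries, so no stability is read from them. With limma on log2(FPKM + 1), the median log2 fold change of members was −1.40 for ML against LL and 2.47 for HL against ML. The share of counts moved to 0.282% (LL) and 0.642% (HL) of summed FPKM, and for the 78 members at 2-fold to 0.205%, 0.0528% and 0.603% in LL, ML and HL. The median length was 554 bases in members with whole counts. The cause of these shifts was not tested, beyond the changed limits themselves. Among the 4 named clusters, chosen for their ratios in these libraries, Cluster-5009.34793 missed the threshold in 8 comparisons made in alternative fits. For ML against LL its adjusted p was 0.0511 to 0.147 in 6 of these, and for HL against LL 0.0533 with DESeq2 and 0.130 with limma on log2(FPKM + 0.1).

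Same-numbered libraries showed no visible joint deviation from their group means (correlations −0.0385 to 0.0109). With 3 libraries per group this cannot exclude that they share a culture or a day, which the labels do not give. With the replicate number as a block, 113, 107 and 120 members were called in the 3 comparisons, in the order above. Of all clusters tested, 17.8%, 19.9% and 27.6% were called in the same directions. At these depths a level under about 0.157 CPM in ML could not be told from 0.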
